A study of Homo sapiens with 6 samples.

Results

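Aminoacyl-tRNA synthetases, the enzymes that join amino acids to their tRNAs, were examined on 6 expression arrays of PEO4 cells with and without knockdown of SHMT1. The members were chosen by gene symbol, as every probe annotated to 1 of 35 listed synthetase genes, with 19 genes for enzymes of the cytosol and 16 genes, named with the suffix 2, for enzymes of the mitochondrion. Of these, 33 had a probe that passed the filter on low intensity, 18 cytosolic and 15 mitochondrial, among 13129 genes tested in all. WARS2 had 1 probe, which read between 86.0 and 89.0 on the 6 arrays and did not pass, and CARS1 had no probe annotated to it in the table used here.

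PEO4 is a cell line of high-grade serous ovarian cancer. The cells carried a lentiviral short hairpin RNA (shRNA), either the control NS, which the labels call non-silencing and the study's text nonspecific, or 1 of 2 shRNAs against SHMT1, F11 and F12, and all were selected on puromycin and grown in RPMI medium with fetal bovine serum. Each group had 2 samples, each measured on 1 Illumina HumanHT-12 array. The sources used here do not say which of the study's shRNA sequences the codes F11 and F12 stand for. The study's methods speak of biological replicates for all experiments, in a number other than the arrays per group here, and the labels do not say if these samples were grown as separate cultures, so the p-values cover no more than the scatter of these samples, possibly technical.

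A synthetase recognizes its amino acid and the matching tRNAs and uses ATP to form the ester bond between them, and the charged tRNA is then carried to the ribosome by an elongation factor. Human cells keep separate nuclear genes for most cytosolic and mitochondrial enzymes, while GARS1 and KARS1, counted here with the cytosolic genes, each supply both compartments. Several cytosolic enzymes are held together in the multisynthetase complex. When uncharged tRNA accumulates, the kinase GCN2 (gene EIF2AK4) phosphorylates eIF2 and translation of the transcription factor ATF4 increases, and many cytosolic synthetase genes are known ATF4 targets. SHMT1 interconverts serine and glycine in the cytosol with a folate cofactor, and SARS1 and GARS1 charge the tRNAs of those 2 amino acids.

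The targeted gene was lower with F11 than with NS. The brighter SHMT1 probe read 542 and 544 on the NS arrays, 291 and 342 on the F11 arrays, and 434 and 442 on the F12 arrays. The groups did not overlap, and the log2 fold change from NS was -0.78 (SE 0.0807, adjusted p = 0.00527) with F11 and -0.31 (SE 0.0807, adjusted p = 0.213) with F12, where every adjusted p is from limma with Benjamini-Hochberg correction over all 23763 tested probes. 2 dimmer SHMT1 probes, with NS means of 121 and 104, gave -0.28 (adjusted p = 0.0699) and -0.04 (adjusted p = 0.891) with F11 and -0.04 and -0.04 with F12, and the mean of the 3 probes gave -0.37 with F11 and -0.13 with F12. The F11 call of the brighter probe was lost when either NS array was left out (adjusted p = 0.0525 and 0.057). SHMT1 was also higher with F12 than with F11, by 0.47 (SE 0.0807, adjusted p = 0.0196), and this was lost without either F12 array (adjusted p = 0.14 and 0.156). Over all tested genes, arrays of 1 group correlated at 0.994 to 0.997 and arrays of different groups at 0.988 to 0.995. All 10 listed epithelial and Mullerian markers had a tested probe, though SOX17 passed the filter only through the F11 arrays, at 197 and 202 beside 83.0 and 85.7 with NS and 83.5 and 81.2 with F12, while 0 of 4 endothelial and 1 of 5 leukocyte markers had one. Of the 7 fibroblast markers 5 were tested, and of these THY1 had an NS mean of 2138 while the collagen genes COL1A1, COL1A2 and COL3A1 had NS means between 91.7 and 97.1, near the filter level of 91.1. The tested leukocyte marker, CD14, fell by 0.59 on the log2 scale with F12 (adjusted p = 0.0355), from 232 and 209 with NS to 155 and 139. Of the 10 epithelial and Mullerian markers, 1 passed upward and 1 downward with F11, where 3.56% of all genes passed. With F12, 0 passed upward and 1 downward, where 0.884% of all genes passed, and 7 of the 10 were above 0. The fallers were KRT8, by 0.61 with F11 (adjusted p = 0.0138), and MUC16, by 0.55 with F12 (adjusted p = 0.0194). The riser was SOX17, which was tested only because of its F11 arrays. The part of these markers in the results was not tested.

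No measured synthetase mRNA passed the test with either SHMT1 shRNA against NS. The count of members past an adjusted p of 0.05 was 0 of 33 with F11, where 3.56% of all tested genes passed, 0 of 33 with F12, where 0.884% passed, and 0 of 33 for the average of both shRNAs, where 0.632% passed. At an unadjusted p under 0.05 there were 7 members with F11, beside 18.8% of all genes, 3 with F12, beside 13.4%, 4 in the average, beside 12.6%, and 6 between the shRNAs, beside 23.9%, so these counts lay near or below the general shares. Both comparisons use the same NS arrays. The smallest adjusted p was 0.102 with F11, for MARS2, and 0.21 with F12, for AARS1. Between the 2 SHMT1 shRNAs, 2 of 33 members differed, SARS1 and EARS2, where 7.52% of all genes did, so this count is near the general share.

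The intervals give the sizes of change that these arrays allow. With F11, the 95% intervals of the log2 fold changes ran from -0.52, the lower bound of WARS1, to 0.41, the upper bound of IARS1, and 32 of the 33 lay wholly within 0.5 of 0. With F12 they ran from -0.58 (HARS2) to 0.39 (IARS1), again with 32 within 0.5, and the intervals of all 33 members lay within 1 of 0 in all 4 comparisons. These are unadjusted intervals, taken 1 gene at a time. Bead intensities include a background, here with a mode of 85.4 over all probes, so fold changes of the dimmer genes are understated.

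**Figure D1:**
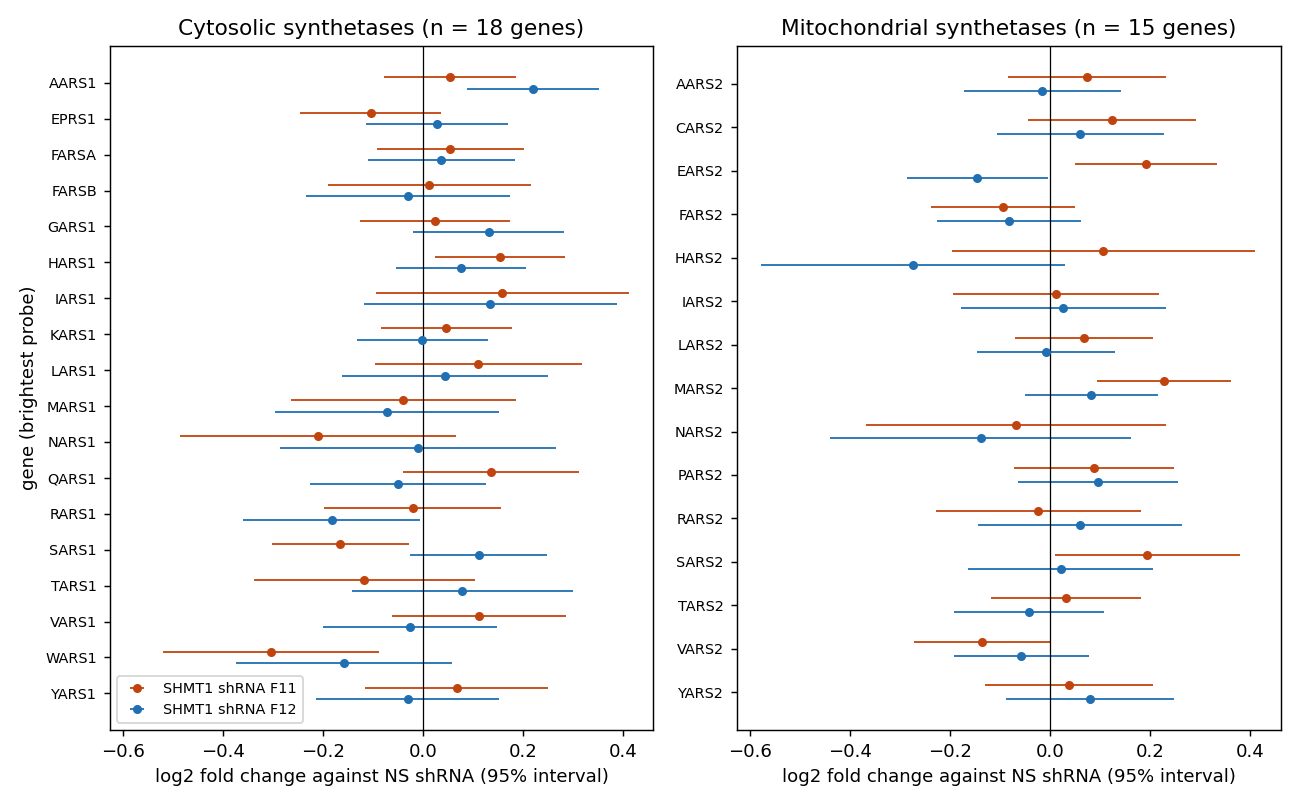
Log2 fold change (horizontal axis) of each tested synthetase gene at its brightest probe, for the SHMT1 shRNAs F11 and F12 against NS, with 18 cytosolic genes on the left and 15 mitochondrial genes on the right. Points are limma estimates from 2 arrays per group and lines are unadjusted 95% intervals, which lie within 0.5 of 0 for all but WARS1 with F11 and HARS2 with F12.

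As groups, the cytosolic and the mitochondrial enzymes had small median differences from NS, though with F11 both medians lay above that of all genes. With F11 the median log2 fold change was 0.04 for the 18 cytosolic genes, of which 11 were above 0. It was 0.07 for the 15 mitochondrial genes, of which 11 were above 0. All tested genes had a median of 0.0048, with 6804 of 13129 above 0. The mitochondrial median on the 2 F11 arrays was 0.03 and 0.10 from the NS mean, beside 0.0054 and 0.007 for all genes. With F12 the medians were 0.01 for the cytosolic and -0.0078 for the mitochondrial genes, beside 0.0023 for all genes, with 9 of 18 and 7 of 15 above 0. The cytosolic median minus the mitochondrial median was -0.03 with F11 and 0.02 with F12. Against the mean of the NS arrays, that difference was 0.03 and -0.03 on the 2 NS arrays themselves. These 2 values mirror each other because the NS arrays are centered on their own mean. The difference was -0.03 and -0.04 on the F11 arrays and 0.04 and 0.03 on the F12 arrays. These values were similar in size to those of the NS arrays, but the F11 and F12 arrays did not overlap. For F12 against F11 the difference of the medians was 0.04. It ran from -0.0048 to 0.0759 when each array was left out, and it was not tested. Some mitochondrial genes were dim, with NS means of 118 for CARS2 and 134 for PARS2. The dimmest cytosolic genes, KARS1 and FARSA, both had NS means of 300, and fold changes of dimmer genes are understated. With a background correction (normexp) the difference of the medians was -0.0602 with F11, 0.0281 with F12 and 0.0849 for F12 against F11.

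Replicate arrays of the members differed by slightly more than those of all genes in NS and F12, and by about as much in F11. The median difference between the 2 arrays of a group, on the log2 scale and without its sign, was 0.10 for the members in NS, 0.09 in F11 and 0.08 in F12, beside 0.07, 0.09 and 0.07 for all tested genes. The median size of the log2 fold change was 0.09 with F11 and 0.06 with F12 for the members, beside 0.07 and 0.07 for all genes. The widest gaps between replicates were 0.34 for IARS1 in NS, 0.44 for NARS2 in F11 and 0.24 for TARS1 in F12. The F11 and NS arrays did not overlap for 16 of the 33 members, where 44.6% of all genes did not, the F12 and NS arrays did not for 12, where 46.6% did not, and the F12 and F11 arrays did not for 16, where 51% did not.

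**Figure D2:**
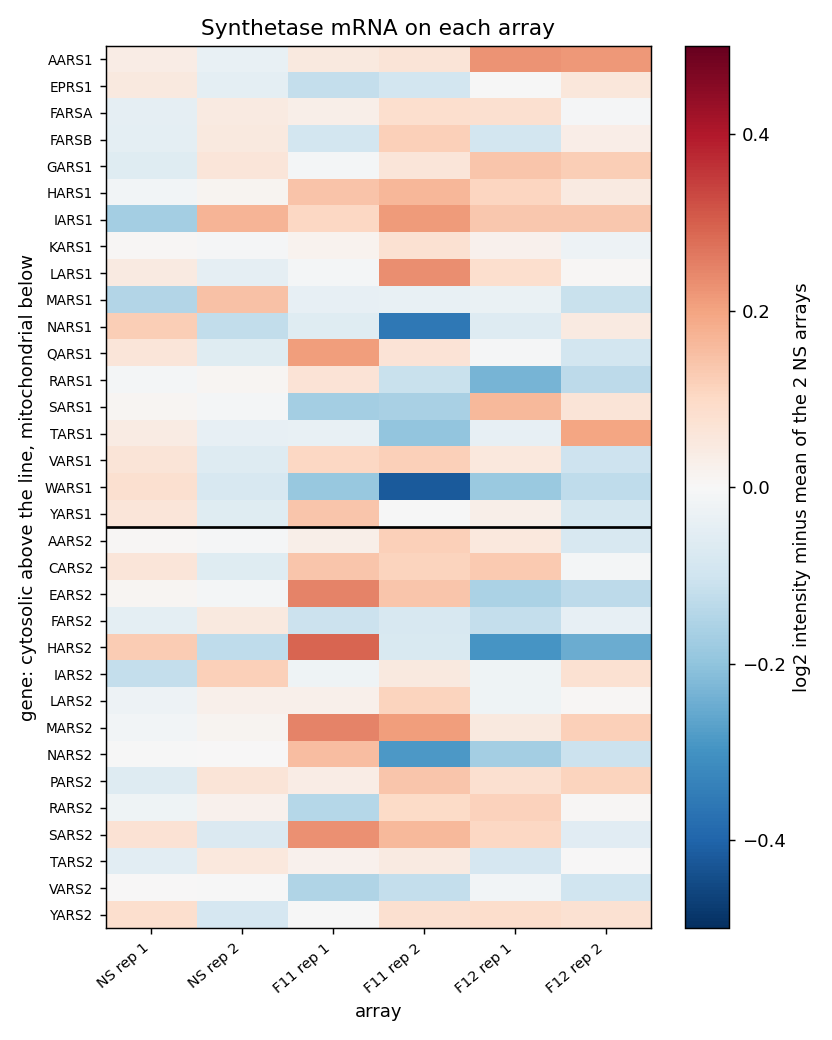
Log2 intensity of the 33 tested synthetase genes (rows, cytosolic above the line and mitochondrial below) on each of the 6 arrays (columns), as the difference from the mean of the 2 NS arrays, with the color scale in log2 units. AARS1 is higher on both F12 arrays and MARS2 on both F11 arrays, whereas IARS1 differs by 0.34 between the NS arrays and NARS2 by 0.44 between the F11 arrays.

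SARS1, which charges the serine tRNAs of the cytosol and also those of selenocysteine, separated the 2 SHMT1 shRNAs. Its normalized intensity was 407 and 401 on the NS arrays, 359 and 361 on the F11 arrays, and 451 and 422 on the F12 arrays. The F11 arrays were below and the F12 arrays above both NS arrays. SARS1 was higher with F12 than with F11 by 0.28 on the log2 scale (SE 0.0584, adjusted p = 0.0393), which is 121% of the F11 level. Against NS its log2 difference was -0.17 with F11 (SE 0.0584, adjusted p = 0.236) and 0.11 with F12 (SE 0.0584, adjusted p = 0.548). The call between the shRNAs was lost when any 1 of the 6 arrays was left out, with adjusted p between 0.0653 and 0.248.

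EARS2, the mitochondrial enzyme that places glutamate on its tRNAs, separated the shRNAs the other way. It read 321 and 317 on the NS arrays, 379 and 351 on the F11 arrays, and 286 and 292 on the F12 arrays. The F11 arrays were above and the F12 arrays below both NS arrays. EARS2 was lower with F12 than with F11 by -0.34 on the log2 scale (SE 0.0602, adjusted p = 0.0228), at 79.1% of the F11 level. Neither shRNA passed for EARS2 against NS, at log2 differences of 0.19 (SE 0.0602, adjusted p = 0.182) for F11 and -0.15 (SE 0.0602, adjusted p = 0.44) for F12. The call between the shRNAs was lost without F11 replicate 1 (adjusted p = 0.0682) and without either F12 array (adjusted p = 0.167 and 0.148), and the probe is annotated to a non-coding transcript of the gene.

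The promoters of these 2 genes, the only members called in any comparison, are shown with the motifs searched in capitals. Both are RefSeq windows on GRCh38.p14 from 250 bases before to 50 bases after the gene's start, at chr1:109213643-109213942 on the plus strand for SARS1 and at chr16:23557301-23557600 on the minus strand for EARS2. The EARS2 window held an interferon-stimulated response element in reverse orientation and an E-box, and the SARS1 window held none of the motifs described further on.
SARS1: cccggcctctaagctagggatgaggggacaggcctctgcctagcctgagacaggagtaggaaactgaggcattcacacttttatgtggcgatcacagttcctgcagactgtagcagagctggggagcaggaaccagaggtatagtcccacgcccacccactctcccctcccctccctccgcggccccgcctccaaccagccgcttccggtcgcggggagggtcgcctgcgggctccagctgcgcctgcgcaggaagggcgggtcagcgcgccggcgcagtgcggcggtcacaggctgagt
EARS2: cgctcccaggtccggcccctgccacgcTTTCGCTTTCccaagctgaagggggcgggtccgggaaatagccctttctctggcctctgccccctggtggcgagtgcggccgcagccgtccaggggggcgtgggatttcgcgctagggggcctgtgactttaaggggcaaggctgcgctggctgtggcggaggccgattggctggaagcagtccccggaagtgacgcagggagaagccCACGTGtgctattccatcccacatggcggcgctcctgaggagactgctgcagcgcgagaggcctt

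Among the other cytosolic enzymes, the largest average differences from NS belonged to WARS1, IARS1 and AARS1. WARS1 charges tryptophan tRNAs and is also known as a gene induced by interferon gamma. Its brighter probe read 1073 and 958 on the NS arrays, 890 and 758 on the F11 arrays, and 891 and 927 on the F12 arrays. Both shRNA groups were below both NS arrays, and the log2 fold change was -0.30 with F11 (SE 0.0918, adjusted p = 0.172), -0.16 with F12 (adjusted p = 0.597) and -0.23 in the average (SE 0.0795, adjusted p = 0.382). Without F11 replicate 1 the F11 value was -0.42 and passed (adjusted p = 0.0487). The dimmer WARS1 probe, annotated to another transcript of the gene, read 526 and 586 with NS, 543 and 594 with F11, and 695 and 650 with F12. At that probe the F12 arrays were the highest, and the log2 fold change there was 0.03 for F11 (SE 0.0788, adjusted p = 0.916) and 0.28 for F12 (SE 0.0788, adjusted p = 0.258), so the sign for WARS1 depended on the probe.

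**Figure D3:**
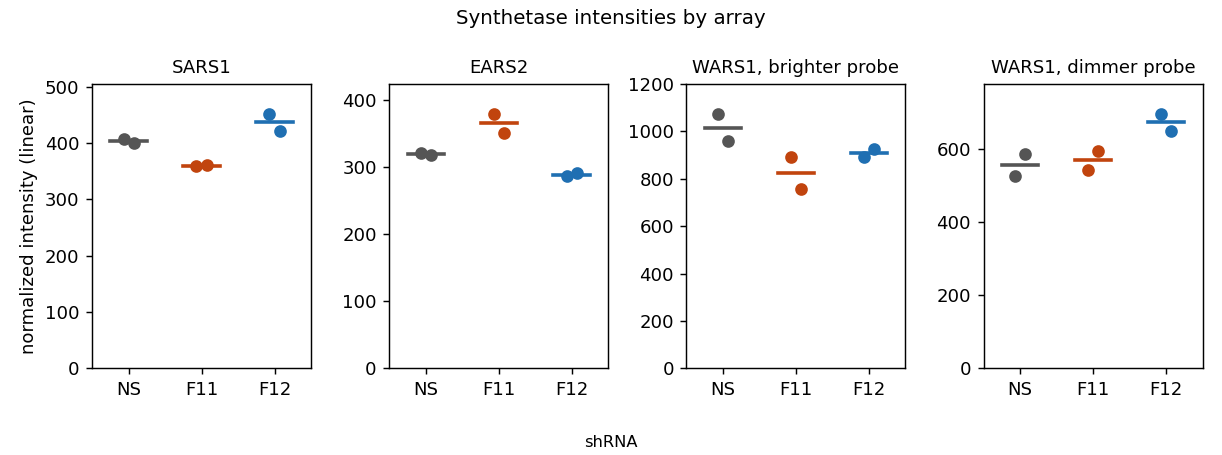
Normalized intensity (vertical axis, linear, from 0) of SARS1, EARS2 and both tested WARS1 probes on each array, with points for the 2 arrays of NS, F11 and F12 and bars at their mean. SARS1 is lowest and EARS2 highest with F11, and the brighter WARS1 probe is highest with NS while the dimmer one is highest with F12.

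IARS1, the isoleucine enzyme of the multisynthetase complex, read 484 and 613 with NS, 586 and 632 with F11, and 599 and 598 with F12. The NS arrays spanned nearly the whole range, and the average log2 fold change of 0.15 (SE 0.0932, adjusted p = 0.675) became -0.02 without NS replicate 1. AARS1, the alanine enzyme, read 1569 and 1486 with NS, 1578 and 1595 with F11, and 1785 and 1774 with F12. Both F12 arrays were above all others, with a log2 fold change of 0.22 with F12 (SE 0.0563, adjusted p = 0.21), at 116% of NS, and 0.06 with F11 (adjusted p = 0.756).

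MARS2, SARS2 and NARS2 had the largest average differences among the mitochondrial enzymes. MARS2 charges the methionine tRNA of the mitochondrion, part of which is then formylated for initiation, and it read 246 and 251 with NS, 295 and 288 with F11, and 257 and 270 with F12. Both F11 arrays were above all others, and F11 gave a log2 fold change of 0.23 (SE 0.0568, adjusted p = 0.102), at 117% of NS, and F12 one of 0.08 (adjusted p = 0.663). SARS2, the mitochondrial serine enzyme, read 530 and 480 with NS, 590 and 565 with F11, and 541 and 485 with F12, with a log2 fold change of 0.20 for F11 (SE 0.0788, adjusted p = 0.303) and 0.02 for F12 (adjusted p = 0.951). The F11 arrays were the highest for SARS2, whereas the F12 arrays overlapped NS, and its average of 0.11 was 0.18 without NS replicate 1, 0.036 without NS replicate 2 and 0.0686 without F12 replicate 1. NARS2, the mitochondrial asparagine enzyme, read 307 and 309 with NS, 343 and 252 with F11, and 274 and 286 with F12, with an average log2 fold change of -0.10 (SE 0.111, adjusted p = 0.839). Its 2 F11 arrays lay on either side of all others, and the average became 0.0074 without F11 replicate 2.

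The remaining 14 cytosolic genes had log2 fold changes from -0.21 (NARS1) to 0.15 (HARS1) with F11 and from -0.18 (RARS1) to 0.13 (GARS1) with F12, with adjusted p of at least 0.243 and 0.438. The remaining 11 mitochondrial genes ranged from -0.14 (VARS2) to 0.12 (CARS2) with F11 and from -0.27 (HARS2) to 0.10 (PARS2) with F12, with adjusted p of at least 0.332 and 0.505. GARS1, whose product uses glycine, the amino acid that SHMT1 makes from serine, read 1036 and 1128 with NS, 1073 and 1127 with F11, and 1190 and 1179 with F12. Its F11 arrays lay between the NS arrays, and its log2 fold change was 0.02 with F11 (SE 0.0641, adjusted p = 0.921) and 0.13 with F12 (SE 0.0641, adjusted p = 0.515). The 7 tested enzymes of the multisynthetase complex, EPRS1, IARS1, KARS1, LARS1, MARS1, QARS1 and RARS1, had a median log2 fold change of 0.05 with F11 and -7e-04 with F12. In the 4 comparisons 0 of them passed, where 0.632% to 7.52% of all genes did, so this count is near the general shares. The 11 tested cytosolic genes outside the complex had medians of 0.02 with F11 and 0.04 with F12.

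For 11 amino acids both the cytosolic and the mitochondrial gene were measured. The 2 genes of a pair had the same sign in 7 of 11 pairs with F11 and in 4 of 11 with F12. Serine was among the pairs with opposite signs with F11, with log2 fold changes of -0.17 for SARS1 and 0.20 for SARS2, and methionine was another, with -0.04 for MARS1 and 0.23 for MARS2. None of the 4 values passed the test, and the cytosolic gene had the higher value in 6 of 11 pairs with F11 and in 8 of 11 with F12.

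The histidine pair, singled out after its values were seen, is encoded head to head. HARS1, the cytosolic enzyme, read 644 and 657 with NS, 718 and 730 with F11, and 700 and 672 with F12. HARS2, the mitochondrial enzyme, read 551 and 461 with NS, 617 and 477 with F11, and 410 and 424 with F12. Both shRNA groups were above NS for HARS1, with log2 fold changes of 0.15 with F11 (SE 0.0554, adjusted p = 0.243) and 0.08 with F12 (adjusted p = 0.686). For HARS2 the F12 arrays were the lowest, at -0.27 against NS (SE 0.13, adjusted p = 0.505) and -0.38 against F11 (SE 0.13, adjusted p = 0.155). The F12 against F11 difference of HARS2 was -0.57 and passed without F11 replicate 2 (adjusted p = 0.0186), and it was -0.20 without F11 replicate 1 (adjusted p = 0.4), so its size rested on 1 F11 array. The 2 start sites leave 84 bases between them on chromosome 5, which are printed in capitals within the RefSeq window chr5:140691321-140691504 (GRCh38.p14, plus strand, in which HARS2 is transcribed), to show how little sequence the pair has between its starts.
HARS1 and HARS2: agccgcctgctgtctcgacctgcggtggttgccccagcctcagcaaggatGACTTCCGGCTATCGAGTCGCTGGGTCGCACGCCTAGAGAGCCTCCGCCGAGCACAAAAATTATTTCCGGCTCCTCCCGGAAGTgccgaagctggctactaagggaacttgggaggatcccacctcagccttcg

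Because many cytosolic synthetase genes are known ATF4 targets, the promoters were searched for the C/EBP-ATF response element, as TGATGNAAN on either strand with the narrower core TGATGCAA lying inside it. RefSeq promoter windows of 300 bases were held for 30 of the 35 members, 16 cytosolic and 14 mitochondrial. AARS2, LARS1, VARS1, VARS2 and YARS1 were not matched. The element was found in 7 of the 30, or 23.3%, beside 3.67% of all 27305 windows and 2.53% of the 15842 windows of protein-coding genes. The core was found in 6 of the 30, or 20.0%, all of them cytosolic, beside 0.923% of all windows and 0.669% of the protein-coding ones. A match is a description of these letters and not of a bound site. Windows of 33 bases around the match are printed here for 5 of these genes, with the match in capitals, to show the element that they share. The YARS2 match lacks the core.
TARS1: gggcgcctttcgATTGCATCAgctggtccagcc
YARS2: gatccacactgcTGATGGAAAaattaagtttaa
MARS1: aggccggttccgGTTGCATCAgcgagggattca
AARS1: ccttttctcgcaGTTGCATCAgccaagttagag
NARS1: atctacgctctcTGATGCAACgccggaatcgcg

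In GRCh38.p14 these windows lie at chr5:33440954-33440986 (TARS1, plus strand), chr12:32756074-32756106 (YARS2, minus strand), chr12:57488051-57488083 (MARS1, plus strand), chr16:70289674-70289706 (AARS1, minus strand) and chr18:57621802-57621834 (NARS1, minus strand). The match began within 14 bases of the gene's start in TARS1, MARS1 and NARS1, and 188 bases before it in AARS1. The 6 measured genes with the element had log2 fold changes from -0.21 to 0.16 with F11, with a median of 1e-04, and from -0.07 to 0.22 with F12, with a median of 0.08. None of the 6 passed the test, and the smallest adjusted p was 0.496 with F11 and 0.21 with F12. Over all tested genes 3.56% passed with F11 and 0.884% with F12, so a count of 0 of 6 differs little from those shares. The E-box CACGTG was found in 4 of the 30 windows, those of MARS2, CARS2 and EARS2 among them, or 13.3%, beside 7.43% of all windows and 8.88% of the protein-coding ones. The interferon-stimulated response element, searched as 2 copies of GAAA with any 2 bases between them on either strand, was found in 1 of the 30, EARS2, or 3.33%, beside 3.65% of all windows.

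The other genes of the pathway were read from lists of the charging, delivery and sensing steps. Over all tested genes, 3.56% passed with F11, 0.884% with F12, 0.632% in the average and 7.52% between the shRNAs. A count of 0 in lists this short differs little from those shares. For delivery in the cytosol, 6 of 6 listed genes were tested, the elongation factors EEF1A1, EEF1B2, EEF1D, EEF1G and EEF2 and the tRNA exporter XPOT, and 0 passed in either comparison with NS, with medians of 0.12 with F11 and 0.12 with F12. For mitochondrial translation, 11 of 13 listed genes were tested and 1 rose with F11, TUFM, the elongation factor that carries charged tRNA to the mitochondrial ribosome. TUFM read 993 and 1058 with NS, 1424 and 1307 with F11, and 1112 and 1073 with F12. Its F11 arrays were above all others, with a log2 fold change of 0.41 with F11 (SE 0.0674, adjusted p = 0.0263) and 0.09 with F12 (adjusted p = 0.692), and TUFM was lower with F12 than with F11 by -0.32 (adjusted p = 0.039). Of the 3 scaffold proteins of the multisynthetase complex, AIMP1, AIMP2 and EEF1E1, 0 had a tested and named probe.

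For sensing, all 14 listed eIF2 kinases and factors of the ATF4 pathway were tested and 0 passed in any comparison. Over all tested genes 0.632% to 7.52% passed, so a count of 0 of 14 is near the general share. ATF4 itself, whose control is largely at translation, read 3516 and 3116 with NS, 3082 and 2915 with F11, and 3486 and 3605 with F12, with log2 fold changes of -0.14 with F11 (SE 0.0736, adjusted p = 0.441) and 0.10 with F12 (adjusted p = 0.695). Of 26 listed ATF4 targets in amino acid supply, 23 were tested, and against NS 1 rose and 1 fell with F11 and 0 passed with F12. PYCR1, which makes proline, read 214 and 225 with NS, 320 and 344 with F11, and 293 and 261 with F12. It rose by 0.60 with F11 (SE 0.0761, adjusted p = 0.0104) and was 0.34 higher with F12 (adjusted p = 0.159), and the average of both shRNAs, 0.47, passed as well (adjusted p = 0.0393).

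PSAT1, a transaminase on the route to serine, fell with F11. It read 607 and 602 with NS, 417 and 406 with F11, and 666 and 622 with F12. The F11 arrays were below all others at a log2 fold change of -0.56 (SE 0.0591, adjusted p = 0.00577), while F12 gave 0.09 (adjusted p = 0.638), and the difference between the shRNAs was 0.65 (adjusted p = 0.00172). SARS1 had the same order of groups as PSAT1, with smaller differences where F11 was compared and 0.11 beside 0.09 for F12 against NS. This order was not particular to the 2 genes. By group means EPRS1, TARS1 and RARS2 had it among the synthetases, as did ATF4 and SLC7A1. SARS1 was also named because F12 and F11 differed, which fixes part of the order. Also between the shRNAs, SLC7A1, a transporter of cationic amino acids, was higher with F12 than with F11, whereas NUPR1 and DDIT4, both stress-induced genes, were lower.

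Of 12 listed interferon gamma targets, read because WARS1 is known as one, 8 were tested. Of these, 2 rose with F11 and 0 passed with F12, beside 3.56% and 0.884% of all tested genes. Between the shRNAs 4 were lower with F12, where 7.52% of all genes passed in either direction. Another 2 had values below 0 that did not pass, and IRF1 and IDO1 had differences of 0.10 and 0.01. With F11, IRF1 and IDO1 had log2 differences of -0.17 (adjusted p = 0.421) and -0.23 (adjusted p = 0.0875). GBP2, a guanylate-binding protein, rose by 0.58 with F11 (SE 0.0642, adjusted p = 0.00667), from 622 and 574 with NS to 918 and 868, and TAP1, a peptide transporter of antigen presentation, rose by 0.38 (SE 0.0621, adjusted p = 0.0263), from 731 and 735 to 952 and 957. With F12, GBP2 read 458 and 456 (log2 fold change -0.39, adjusted p = 0.061) and TAP1 635 and 694 (-0.14, adjusted p = 0.464). Both were lower with F12 than with F11, by -0.97 for GBP2 (adjusted p = 0.000507) and -0.52 for TAP1 (adjusted p = 0.00472), as were GBP1 and CXCL10. CXCL10 was dim, at 98.73 and 98.97 with NS, 116 and 114 with F11, and 87.25 and 93.18 with F12, near the filter level of 91.1. IDO1 was near that level as well, with means of 106 with NS, 90.3 with F11 and 90.9 with F12. EARS2 had this order of groups, F11 above NS above F12, whereas neither WARS1 probe did. The order was not particular to EARS2. By group means FARSB, KARS1, QARS1, VARS1, YARS1, AARS2, HARS2, LARS2 and TARS2 had it too, as did NUPR1 and DDIT4 outside the interferon list. EARS2 was also named because F12 and F11 differed, which fixes part of the order. Of 10 listed reference genes 9 were tested and 0 passed in any comparison, with medians of -0.0069 with F11 and 0.09 with F12.

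**Figure D4:**
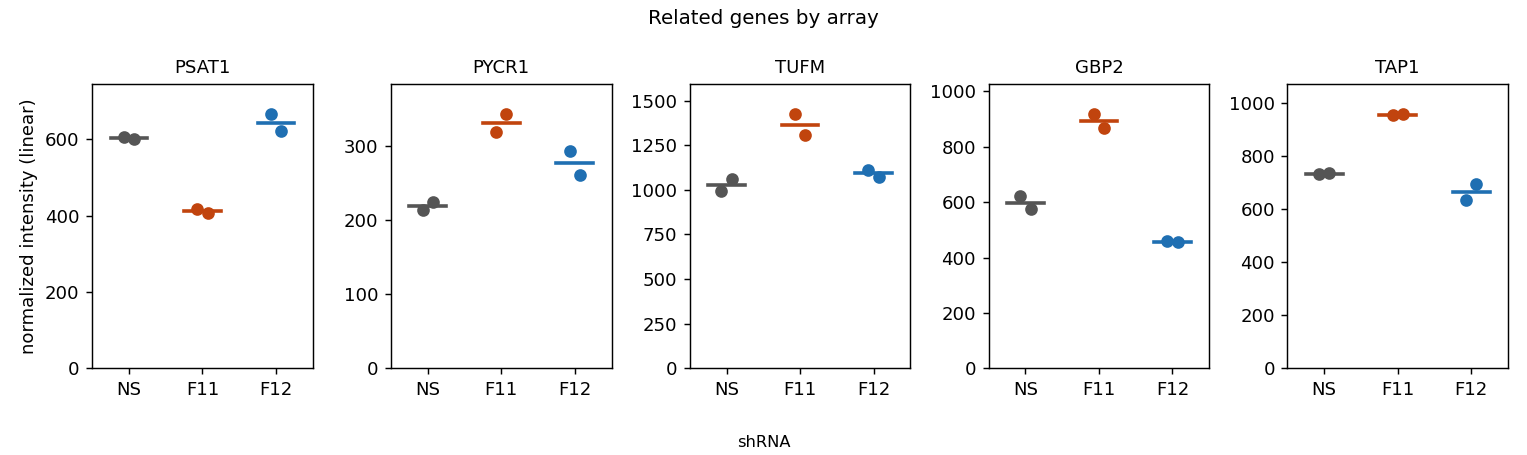
Normalized intensity (vertical axes, linear, from 0) of PSAT1, PYCR1, TUFM, GBP2 and TAP1 on each array, with points for the 2 arrays of NS, F11 and F12 and bars at their mean. With F11, PSAT1 is the lowest at 417 and 406 and the other 4 genes are the highest, while the F12 arrays lie below NS for GBP2 and TAP1.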

How the data were processed

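Total RNA of PEO4 cells was labeled and hybridized to 6 Illumina HumanHT-12 V4 arrays, 2 each for NS, F11 and F12, grouped by the sample labels. Per the study's methods, the authors used GenomeStudio and then quantile normalization in lumi (the version is not stated in the submitters' processing notes). Each deposited value is a normalized intensity of a probe on an array. The values are linear, between 70.9 and 15895, and their median is 89.9. Whether background had been subtracted is not stated. Another deposited table, not normalized, was left out because its 12 columns could not be matched to sample labels.

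The intensities were log2-transformed with no pseudocount. Background was taken as the mode of all values, 85.4, with a spread of 3.47 from the values below it, and a probe was tested if it exceeded the 95th percentile of that background, 91.1, on 2 or more of the 6 arrays, which held for 23763 of 47321 probes. Probes were named from the platform annotation, updated through Entrez identifiers to RefSeq symbols. Of all probes, 30112 had 1 symbol, 8 had several and 17201 had none, and the last 2 kinds were not named. A gene's value is that of its brightest tested probe. The listed members were all accounted for. Values on each array are given for members called in any comparison and, in each compartment, for the 3 with the largest average difference, and other genes are named from lists by their lowest adjusted p. GARS1, HARS1 and HARS2 were added after their values were seen. The members and lists were chosen with earlier results of these data known.

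Groups were compared in limma 3.58.1 (R 4.3.3) with lmFit and eBayes in 1 fit of all 6 arrays (3 residual degrees of freedom, 4.28 prior), two-sided, with Benjamini-Hochberg adjustment over all tested probes at 0.05 and no fold limit. The average comparison was also run on simulated arrays with independent errors, which does not check the other comparisons. Alternatives were no filter, a filter on all 6 arrays, normexp with an offset of 16, a second quantile normalization, the replicate number as a block, a trended robust variance, only the groups compared, each array left out, the mean of a gene's probes, and the SHMT1 shRNA arrays as 1 group. The dimmer WARS1 probe was an alternative chosen after seeing the data. Precision is limited by how many arrays there were.

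Promoter windows were taken from RefSeq, build GRCh38.p14, from 250 bases before to 50 bases after a gene's start, and searched on both strands. Some matched windows are not reported here.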

Additional observations from a re-analysis of the deposited data

Results flagged for a closer look

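Of the 33 tested synthetases, 2 differed between the SHMT1 shRNAs by the test of the difference itself. Over all tested genes 7.52% did, so this count is near the general share. The F12 minus F11 difference was 0.28 for SARS1 (adjusted p = 0.0393) and -0.34 for EARS2 (adjusted p = 0.0228), on the log2 scale and in limma.

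Among the other named genes, the same test gave -0.32 for TUFM (adjusted p = 0.039), 0.65 for PSAT1 (adjusted p = 0.00172), 0.32 for SLC7A1 (adjusted p = 0.0406), -0.39 for NUPR1 (adjusted p = 0.035) and -0.39 for DDIT4 (adjusted p = 0.0209). The interferon gamma targets GBP1, GBP2, CXCL10 and TAP1 gave -0.46 (adjusted p = 0.0311), -0.97 (adjusted p = 0.000507), -0.36 (adjusted p = 0.0169) and -0.52 (adjusted p = 0.00472). CXCL10 read near the filter level of 91.1. SHMT1 itself differed by 0.47 (adjusted p = 0.0196) at its brighter probe.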

How the results depend on the processing

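The count of synthetases called was 0 with F12 and 0 in the average of both shRNAs under all 14 alternatives run for each, and with F11 it was 0 under 13 of 14 and 1 without F11 replicate 1. Leaving out each array gave 0 to 1 with F11, 0 to 0 with F12 and 0 to 0 in the average. For F12 against F11 the count of 2 became 0 with normexp, where the log2 differences were 0.33 for SARS1 (adjusted p = 0.149) and -0.41 for EARS2 (adjusted p = 0.0732), 1 with the trended robust variance, 1 with only the groups compared, and 0 to 3 when each array was left out. It was 3 without F11 replicate 2, when EARS2, HARS2 and NARS2 passed. SARS1 kept its call under 4 of 14 alternatives and EARS2 under 10 of 14.

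With the replicate number as a block, the count for F12 against F11 was 1, with EARS2 passing (adjusted p = 0.0411) and SARS1 not (adjusted p = 0.062). The block left the other 3 counts at 0. Over all genes it reduced the calls from 468 to 302 with F11, from 116 to 60 with F12, from 83 to 59 in the average and from 987 to 783 between the shRNAs. Same-numbered arrays correlated in their deviations at 0.452 for NS with F11, -0.287 for NS with F12 and -0.306 for F11 with F12. The correlations differed in sign, and the numbers were not taken to pair the samples. The signs depend on the numbering, because the replicate deviations of a group mirror each other. Exchanging the numbers within F12 would turn its correlations positive. The block used the numbers of the labels, and a factor shared under another numbering was not tested.

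The cytosolic minus mitochondrial median was -0.0602 with F11 and 0.0849 between the shRNAs with normexp. Leaving out each array gave -0.0651 to -0.0238 with F11, 0.0127 to 0.0681 with F12, -0.0339 to 0.0173 in the average and -0.0048 to 0.0759 between the shRNAs. Single genes changed sign in 5 values: the average of IARS1 was -0.0236 without NS replicate 1 (range over the arrays left out, -0.0236 to 0.3185), that of NARS2 was 0.0074 without F11 replicate 2 (range -0.2133 to 0.0074), and the dimmer WARS1 probe gave 0.0319 with F11, 0.28 with F12 and 0.15 in the average. The cause was not tested.

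The average SHMT1 difference of -0.55 (adjusted p = 0.0257) was not called under 6 of 14 alternatives. Over all genes, leaving out 1 array gave 79 to 544 calls with F11, 0 to 224 with F12, 3 to 196 in the average and 194 to 1323 between the shRNAs, so calls here rest on few arrays. With all probes tested in place of the filtered ones, 542 genes were called with F11 and 145 with F12. With the trended robust variance the average gave 161, with only the groups compared F11 gave 171 and F12 gave 224, and when all 4 knockdown arrays formed 1 group the average gave 6.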
